A study of Homo sapiens with 12 samples.

Results

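NRF2, encoded by NFE2L2, is the transcription factor that switches on antioxidant and detoxification genes. The genes described here are NFE2L2, its inhibitor KEAP1 and a set of known NRF2 targets and redox enzymes, taken from the deposited tables by symbol. The list holds 35 symbols, which matched 36 of the 62710 genes, because TRIM16L is listed under 2 Ensembl identifiers. All 36 passed the low-count filter that kept 18355 genes, some of them only through the line in which they were abundant. By role they comprise regulators, glutathione genes, thioredoxin genes, aldo-keto reductases, iron and haem genes, pentose phosphate and NADPH genes, quinone, carbonyl and xenobiotic enzymes, conjugate exporters, and a remainder of 4 symbols.

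RNA was sequenced from 3 established human hepatocellular carcinoma lines, PLC/PRF/5, HLF and SNU475. Each line gave 2 libraries from cells treated with 20 mM lactate for 24 h and 2 from untreated control cells, 12 libraries in all. Lactate was supplied as lactic acid and the labels give no medium pH, so lactate and acidity cannot be told apart. Whether the 2 libraries of a group are separate cultures is not stated, and the p-values reflect library-to-library spread that may be technical. What the control cells received is not stated either.

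Under resting conditions KEAP1 holds NRF2 for ubiquitination and degradation, so the amount of NRF2 protein is set largely after transcription. Oxidants and electrophiles modify KEAP1, NRF2 accumulates, pairs with a small MAF protein and binds the antioxidant response element of its targets. Those targets make and recycle glutathione and thioredoxin, reduce carbonyls and quinones, store iron, break down haem and supply NADPH. In the liver the pathway serves drug and oxidant detoxification, and mutations that activate it are found in a share of hepatocellular carcinomas.

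The core of the antioxidant response element was searched in the 250 bases before each RefSeq start (build GRCh38.p14), as TGACNNNGC on either strand. RefSeq promoters were matched for 26 of the 35 symbols, giving 32 promoters. A match lay in 9 of the 32 (28.1%), against 3830 of 35114 RefSeq promoters of the same length (10.9%). The 9 belonged to KEAP1, GCLM, GPX2, PGD, EPHX1, ME1 and CBR1, and to 2 promoters of TXNRD1. SLC7A11, GSR, PRDX1, AKR1B10, HMOX1, FTH1, CBR3, ABCC3 and TRIM16L were not matched. 4 promoters are shown because their genes recur in the results below: KEAP1 was among the lowest p-values with lactate, GPX2 had reads in PLC/PRF/5 only, and the TXNRD1 effects differed in sign between lines. Capitals mark the matches, and each sequence runs 5′ to 3′ on the strand of its gene.
KEAP1, chr19:10502772-10503021, minus strand: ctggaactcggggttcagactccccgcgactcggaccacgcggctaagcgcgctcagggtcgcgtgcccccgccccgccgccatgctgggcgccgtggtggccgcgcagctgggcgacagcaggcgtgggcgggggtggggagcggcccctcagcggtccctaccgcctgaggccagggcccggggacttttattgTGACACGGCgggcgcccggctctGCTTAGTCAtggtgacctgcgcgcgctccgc
GPX2, chr14:64942746-64942995, minus strand: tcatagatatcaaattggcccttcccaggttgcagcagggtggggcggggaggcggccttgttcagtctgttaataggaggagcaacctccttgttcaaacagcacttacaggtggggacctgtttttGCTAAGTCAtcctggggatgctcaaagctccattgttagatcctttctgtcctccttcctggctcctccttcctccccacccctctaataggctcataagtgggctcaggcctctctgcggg
TXNRD1 upstream promoter, chr12:104215529-104215778, plus strand: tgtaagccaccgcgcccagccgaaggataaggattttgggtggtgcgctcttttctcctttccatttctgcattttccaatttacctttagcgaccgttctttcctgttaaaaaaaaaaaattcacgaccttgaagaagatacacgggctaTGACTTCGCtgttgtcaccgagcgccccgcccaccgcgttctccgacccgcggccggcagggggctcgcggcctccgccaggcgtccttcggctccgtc
TXNRD1 downstream promoter, chr12:104286782-104287031, plus strand: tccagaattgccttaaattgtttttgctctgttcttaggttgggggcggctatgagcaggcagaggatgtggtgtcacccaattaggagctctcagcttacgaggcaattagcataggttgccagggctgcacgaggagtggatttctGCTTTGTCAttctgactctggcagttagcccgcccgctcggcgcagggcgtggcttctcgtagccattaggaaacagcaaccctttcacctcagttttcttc

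GCLM holds GCTTAGTCA 34 bases before its start, the same 9 letters that KEAP1 holds 31 bases before its own. Counted from the start, EPHX1 has TGACTTGGC at 78 bases in the most downstream of its promoters. ME1 has TGACTCAGC at 137, CBR1 has GCAAAGTCA at 159 and PGD has GCAATGTCA at 201. The other EPHX1 promoters held no match, nor did another KEAP1 promoter (chr19:10503357-10503606). The site of ME1 also contains an AP-1 letter pattern (TGANTCA), which 2 of the 32 promoters held (6.25%, against 6.57% of all RefSeq promoters). The SP1 letters GGGCGG stood in 71.9% of these promoters, against 42.6% of all, and the E-box CACGTG in 3.12%, against 6.35%. A match is a description of these letters and not a measured binding site. No binding was measured in these libraries.

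The libraries held 16533437 to 22187849 expected counts. The share of counts from the 36 genes was 0.908% to 1.14% in PLC/PRF/5, 0.744% to 0.811% in HLF and 2.46% to 3.76% in SNU475. The 2 SNU475 libraries numbered 2 stood apart, with 13.9% (lactate) and 15.1% (control) of counts on mitochondrially encoded genes, against 8.50% and 7.996% in those numbered 1. In HLF that share was 5.49% and 3.93% with lactate, against 9.52% and 3.39% in the controls. The labels call all cells hepatocellular carcinoma cells. The 12 hepatocyte markers summed to 3486 to 7140 CPM (read counts scaled to the TMM-adjusted library total) in PLC/PRF/5. In HLF they summed to 7.67 to 12.9 CPM, with 7 to 10 of the 12 at 0. In SNU475 they summed to 5.01 to 8.81 CPM, with 6 to 8 of the 12 at 0. AFP was the largest in PLC/PRF/5, at a mean of 2349 CPM in the controls. ALB averaged 47.3 CPM there, TTR 2.39 CPM, AHSG 0.272 CPM and CYP3A4 0 CPM.

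Between untreated lines, SNU475 carried the highest levels of most of these genes. edgeR called 26 of the 36 higher in untreated SNU475 than in each of the other lines (adjusted p under 0.05 in both comparisons), where 12.9% of all tested genes were. The other extreme was HLF, in which 13 were called lower than in both other lines, against 9.04% of all genes. In untreated PLC/PRF/5, NFE2L2, KEAP1, GPX2 and ABCC2 (4 of the 36) were called higher than in both others, near the 12.5% share of all genes. GPX2 had no counts in HLF or SNU475 and passed the filter only through PLC/PRF/5, so its call is no independent test. Likewise AKR1B10 and AKR1C2, with at most 1 count in the HLF controls, passed it only through the other lines. The same holds for AKR1C1, with 15 counts in the HLF controls, and CBR3, with 1 count in the PLC/PRF/5 controls. It also holds for TRIM16L ENSG00000108448, with no counts in the SNU475 controls. Calls of these genes against the line where they were nearly absent are no independent tests either. The order of the lines did not follow the 2 regulators: PLC/PRF/5 had the most NFE2L2 and KEAP1 mRNA, and SNU475 the most mRNA of most targets. In bulk RNA, fewer cells that express a gene and less RNA per cell cannot be told apart.

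By comparison, 17 genes were called higher and 5 lower in PLC/PRF/5 than in HLF, against 21.7% and 21.3% of all genes. The median log2 fold of the 36 was 0.74, against 0 for all genes tested. Against SNU475, 4 were called higher and 27 lower in PLC/PRF/5, with backgrounds of 22.4% and 26.3%, and a median of -1.96 against -0.030. In HLF against SNU475, 1 was called higher and 30 lower, with backgrounds of 17.2% and 21.9%, and a median of -2.12 against 0. The higher row was TRIM16L ENSG00000108448, which was not called with DESeq2, without any 1 of the HLF or SNU475 controls, or without both SNU475 libraries numbered 2. With similar rows summed it was merged into the other TRIM16L row and could not be called. That sum was called lower in HLF than in SNU475 (-2.84 ± 0.26, edgeR adjusted p = 9.4e-06). Without both SNU475 libraries numbered 2 the counts were 20 and 5, then 5 and 28, then 0 and 30. The 3 comparisons share their control libraries with each other and with the lactate comparisons.

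**Figure D1:**
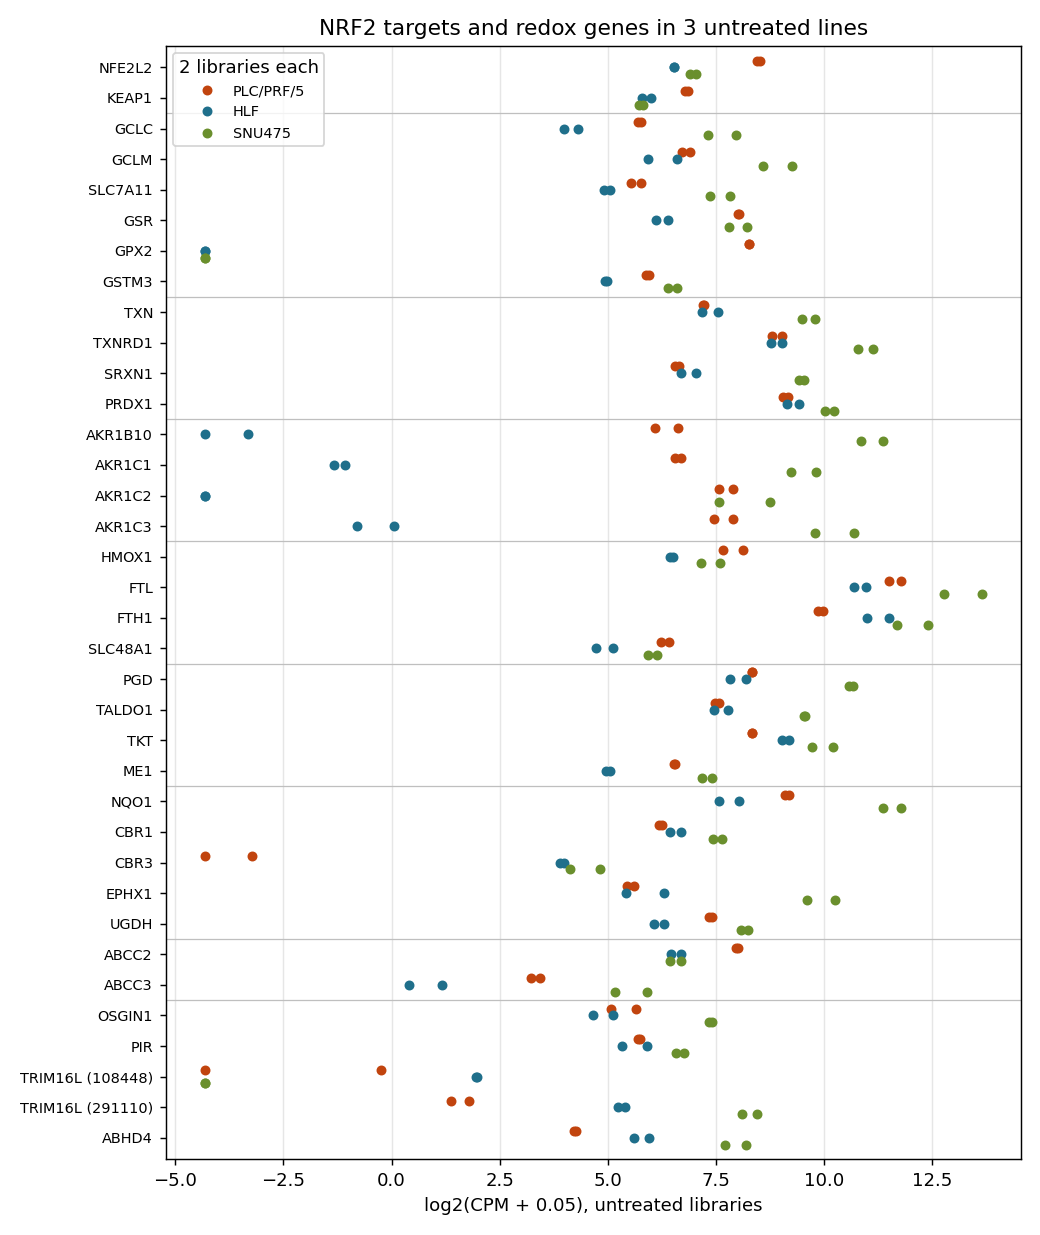
Levels of the 36 genes in the untreated libraries, as log2(CPM + 0.05) on the x axis, with 1 row per gene, 2 points per line and grey lines between the role groups; TRIM16L appears under the ends of its 2 Ensembl identifiers. SNU475 points lie furthest to the right in most rows, the aldo-keto reductases of HLF and GPX2 of HLF and SNU475 lie at the left edge, and PLC/PRF/5 leads for NFE2L2, KEAP1, GPX2 and ABCC2.

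The regulators were highest in PLC/PRF/5. NFE2L2 (chromosome 2, 177227595 to 177392697, GENCODE 29 on GRCh38, as are the other gene coordinates) had 352 and 368 CPM in untreated PLC/PRF/5, 92.1 and 92.1 CPM in HLF and 119 and 131 CPM in SNU475. KEAP1 (chromosome 19, 10486120 to 10503741) had 115 and 110 CPM in untreated PLC/PRF/5, 54.9 and 63.5 CPM in HLF and 56.5 and 52.5 CPM in SNU475. For both genes the PLC/PRF/5 libraries lay above all others. NFE2L2 was higher in PLC/PRF/5 than in HLF by 1.97 ± 0.19 on the log2 scale (SE, edgeR adjusted p = 9.73e-06) and than in SNU475 by 1.53 ± 0.19 (adjusted p = 6.33e-05). KEAP1 was higher by 0.93 ± 0.18 (adjusted p = 0.00175) and 1.05 ± 0.18 (adjusted p = 0.000722). Between HLF and SNU475 neither regulator was called (NFE2L2 -0.44 ± 0.19, adjusted p = 0.0816; KEAP1 0.12 ± 0.18, adjusted p = 0.639).

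Among glutathione genes, SNU475 led in synthesis and PLC/PRF/5 alone held the peroxidase GPX2. GCLC, the catalytic subunit of glutamate-cysteine ligase, had 52.0 and 54.0 CPM in untreated PLC/PRF/5, 15.8 and 19.8 CPM in HLF and 248 and 159 CPM in SNU475. The 3 lines did not overlap, and the log2 fold of HLF over SNU475 was -3.52 ± 0.37 (edgeR adjusted p = 2.53e-05). GCLM, the modifier subunit of the same ligase, and SLC7A11, the cystine importer, were likewise highest in SNU475 (log2 fold of HLF over SNU475 -2.66 and -2.63). GPX2, a glutathione peroxidase of epithelial cells (chromosome 14, 64939152 to 64942905), had 306 and 310 CPM in untreated PLC/PRF/5 and no counts in any of the 4 HLF or the 4 SNU475 libraries. With a floor of 3 counts over the group, GPX2 was at least 4016-fold higher in untreated PLC/PRF/5 than in HLF and at least 3611-fold higher than in SNU475. GSR, which regenerates reduced glutathione, overlapped between untreated PLC/PRF/5 (256 and 263 CPM) and SNU475 (300 and 223 CPM), with a fitted difference of -0.01 ± 0.19. Its HLF levels were lower, at 69.1 and 84.4 CPM. GSTM3, a glutathione transferase, was lowest in HLF (31.6 and 30.6 CPM) and highest in SNU475 (97.4 and 84.6 CPM).

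All 4 thioredoxin genes were called higher in SNU475 than in the other lines, and none was called between PLC/PRF/5 and HLF. TXN, thioredoxin itself, had 149 and 147 CPM in untreated PLC/PRF/5, 187 and 146 CPM in HLF and 715 and 892 CPM in SNU475. SRXN1, sulfiredoxin, which repairs over-oxidised peroxiredoxins (chromosome 20, 646615 to 653370), had 99.4 and 93.9 CPM in untreated PLC/PRF/5, 104 and 131 CPM in HLF and 743 and 688 CPM in SNU475. Every SNU475 library exceeded every other library for both genes. The log2 fold of PLC/PRF/5 over SNU475 was -2.44 ± 0.28 (edgeR adjusted p = 3.63e-05) for TXN and -2.89 ± 0.23 (adjusted p = 2.55e-06) for SRXN1. TXNRD1, thioredoxin reductase, and PRDX1, a peroxiredoxin, were also called lower in PLC/PRF/5 than in SNU475 (-2.04 ± 0.23 and -1.03 ± 0.25). Against HLF, all 4 differences of PLC/PRF/5 lay between -0.28 and 0.02 and none was called. edgeR gave 0 of these 4 an unadjusted p under 0.05 there, and DESeq2 and limma-voom also called 0 of the 4.

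The aldo-keto reductases, NADPH-dependent enzymes that reduce carbonyls and steroids, spanned the widest range. AKR1B10 (chromosome 7, 134527592 to 134541408) had 68.4 and 98.5 CPM in untreated PLC/PRF/5, 0.0497 and 0 CPM in HLF and 2634 and 1866 CPM in SNU475. The HLF controls held 1 count in all. The ratio to HLF was 3300 in PLC/PRF/5 (95% interval 592 to 130390) and 88150 in SNU475 (15821 to 3481800), where intervals cover counting error only. Its log2 fold of PLC/PRF/5 over SNU475 was -4.75 ± 0.33 (edgeR adjusted p = 1.82e-06).

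AKR1C1, AKR1C2 and AKR1C3 lie side by side on chromosome 10 (4963253 to 5107686) and are similar in sequence, AKR1C1 and AKR1C2 the most. The authors' counting could split reads between them. Over 972 coding bases each, AKR1C1 and AKR1C2 matched at 953 (98%), AKR1C1 and AKR1C3 at 893 (91.9%) and AKR1C2 and AKR1C3 at 887 (91.3%), from the GENCODE 29 transcripts. Coding bases 73 to 162 are shown because the 3 differ most in this stretch; capitals mark the 19 positions that are not the same in all 3.
AKR1C1: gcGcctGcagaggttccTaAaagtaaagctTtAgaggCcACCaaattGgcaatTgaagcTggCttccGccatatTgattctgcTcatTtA
AKR1C2: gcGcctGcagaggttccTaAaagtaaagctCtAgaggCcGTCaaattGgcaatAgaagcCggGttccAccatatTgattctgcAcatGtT
AKR1C3: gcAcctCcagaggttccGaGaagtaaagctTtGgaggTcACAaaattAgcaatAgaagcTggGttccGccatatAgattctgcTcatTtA

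AKR1C2, which inactivates dihydrotestosterone, had 192 and 237 CPM in untreated PLC/PRF/5, no counts in the HLF controls and 431 and 190 CPM in SNU475. Its PLC/PRF/5 and SNU475 libraries overlapped, and the difference between them was not called (-0.54 ± 0.36, edgeR adjusted p = 0.243). Against the floor of 3 counts over the HLF controls, AKR1C2 was at least 2812-fold higher in PLC/PRF/5 and at least 4065-fold higher in SNU475. AKR1C1 was at 104 and 93.3 CPM in PLC/PRF/5, 0.348 and 0.422 CPM in HLF and 905 and 606 CPM in SNU475. AKR1C3 was at 176 and 238 CPM, 0.994 and 0.527 CPM, and 1643 and 883 CPM in PLC/PRF/5, HLF and SNU475. With the 3 rows summed, an alternative chosen after seeing the data, the log2 fold of PLC/PRF/5 was 8.81 ± 0.41 over HLF and -2.17 ± 0.29 over SNU475, and that of HLF over SNU475 was -10.98 ± 0.44. All 3 differences of the sum were called (edgeR adjusted p at most 0.000114), in the order of the lines that AKR1C1 and AKR1C3 showed singly.

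Ferritin and the haem genes differed in which line was highest. FTL and FTH1, the light and heavy chains of the iron store ferritin, were highest in SNU475. FTL had 2909 and 3503 CPM in untreated PLC/PRF/5, 2009 and 1650 CPM in HLF and 12799 and 6976 CPM in SNU475. FTH1 had 936 and 1004 CPM in PLC/PRF/5, 2920 and 2030 CPM in HLF and 5455 and 3283 CPM in SNU475. For FTL the lowest line was HLF and for FTH1 it was PLC/PRF/5, and the lines did not overlap for either chain. The log2 fold was -2.43 ± 0.34 for FTL in HLF over SNU475 (edgeR adjusted p = 0.000199), and -2.17 ± 0.28 for FTH1 in PLC/PRF/5 over SNU475 (adjusted p = 8.34e-05). The 2 SNU475 controls differed from each other by more than any other pair for FTL, and the lower of them is the library with 15.1% mitochondrial counts. HMOX1, haem oxygenase, which releases iron from haem, was not highest in SNU475. It had 278 and 203 CPM in untreated PLC/PRF/5, 87.3 and 91.1 CPM in HLF and 143 and 195 CPM in SNU475, and PLC/PRF/5 and SNU475 were not called different (0.51 ± 0.26, adjusted p = 0.126). SLC48A1, a haem transporter of the lysosome, was called lower in HLF than in both other lines (34.6 and 26.3 CPM in HLF).

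The pentose phosphate and NADPH enzymes were all called highest in SNU475. PGD, 6-phosphogluconate dehydrogenase, which yields NADPH, had 324 and 323 CPM in untreated PLC/PRF/5, 293 and 225 CPM in HLF and 1621 and 1531 CPM in SNU475. ME1, the cytosolic malic enzyme and another NADPH source, had 94.7 and 91.9 CPM in PLC/PRF/5, 32.9 and 30.8 CPM in HLF and 169 and 146 CPM in SNU475. PGD was not called between PLC/PRF/5 and HLF (0.32 ± 0.20, edgeR adjusted p = 0.229), and ME1 was called in all 3 comparisons, lowest in HLF and highest in SNU475. The log2 fold of HLF over SNU475 was -2.61 ± 0.22 for PGD (edgeR adjusted p = 4.73e-06) and -2.30 ± 0.19 for ME1 (adjusted p = 4.58e-06). TKT, transketolase, had its lowest level in PLC/PRF/5 (323 and 322 CPM) and TALDO1, transaldolase, was not called between PLC/PRF/5 and HLF (-0.10 ± 0.21).

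Of the quinone, carbonyl and xenobiotic enzymes, 4 of 5 were called highest in SNU475. NQO1, the quinone reductase most often used as a reporter of NRF2, had 544 and 583 CPM in untreated PLC/PRF/5, 261 and 190 CPM in HLF and 3515 and 2642 CPM in SNU475. EPHX1, microsomal epoxide hydrolase, had 43.3 and 48.5 CPM in PLC/PRF/5, 78.3 and 43.0 CPM in HLF and 1224 and 782 CPM in SNU475. EPHX1 had a log2 fold of -4.45 ± 0.33 in PLC/PRF/5 over SNU475 (edgeR adjusted p = 1.38e-06), and its PLC/PRF/5 and HLF libraries overlapped. CBR3, a carbonyl reductase, had 0.0564 and 0 CPM in PLC/PRF/5, 15.9 and 14.9 CPM in HLF and 17.5 and 28.1 CPM in SNU475. The PLC/PRF/5 controls held 1 count of CBR3, and the level was 582 times as high in HLF (95% interval 104 to 23044) and 860 times as high in SNU475 (154 to 33999). Its neighbour on chromosome 21, CBR1, showed no such gap, with 72.4 and 76.8 CPM in PLC/PRF/5. UGDH, which makes UDP-glucuronate for conjugation, was called lowest in HLF and highest in SNU475.

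Both exporters of conjugates were called higher in PLC/PRF/5 than in HLF. ABCC2 (chromosome 10, 99782640 to 99852594), the pump of the bile canaliculus, had 256 and 249 CPM in untreated PLC/PRF/5, 103 and 88.2 CPM in HLF and 104 and 87.3 CPM in SNU475. ABCC3, its basolateral relative, had 9.25 and 10.7 CPM in PLC/PRF/5, 2.19 and 1.26 CPM in HLF and 60.0 and 35.6 CPM in SNU475. The log2 fold of ABCC2 in PLC/PRF/5 over HLF was 1.41 ± 0.29 (edgeR adjusted p = 0.00211), and that of ABCC3 in HLF over SNU475 was -4.78 ± 0.49 (adjusted p = 2.22e-05). In PLC/PRF/5 over SNU475, ABCC2 was higher, at 1.40 ± 0.29 (edgeR adjusted p = 0.00194), and ABCC3 lower, at -2.26 ± 0.42 (adjusted p = 0.00111). PLC/PRF/5 is also the line with the highest hepatocyte marker sum, and the part of hepatocyte identity in these levels was not tested.

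In the remaining group OSGIN1, PIR, ABHD4 and the main TRIM16L row were called highest in SNU475. OSGIN1, an oxidative stress-induced growth inhibitor, is described with lactate below, and PIR, pirin, differed least between lines in this group (untreated levels 40.4 to 109 CPM). The TRIM16L row ENSG00000291110 had 2.54 and 3.43 CPM in untreated PLC/PRF/5, 42.1 and 37.8 CPM in HLF and 276 and 352 CPM in SNU475. Its log2 fold in PLC/PRF/5 over SNU475 was -6.71 ± 0.33 (edgeR adjusted p = 8.69e-08). The other row, ENSG00000108448 (chromosome 17, 18697998 to 18736118), had 0.789 and 0 CPM in PLC/PRF/5, 3.88 and 3.79 CPM in HLF and no counts in the SNU475 controls, a level at least 45.0-fold higher in HLF. The rows share a symbol and the counting could split reads between them. That row's call in HLF over SNU475 (adjusted p = 0.0303) was lost when any control of either line was left out (adjusted p 0.077 to 0.0969) and in DESeq2 (0.0639). With the rows summed, an alternative chosen after seeing the data, the order of the lines was that of the larger row (PLC/PRF/5 minus SNU475 -6.53 ± 0.31).

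Levels of different genes can be set side by side only per length, for which the deposited TPM values were used. Summed over the 4 iron and haem genes, TPM was 9482 and 11194 in untreated PLC/PRF/5, 9381 and 7707 in HLF and 34047 and 15702 in SNU475, most of it ferritin. The other 8 role groups together came to 6034 and 6435 TPM in untreated PLC/PRF/5, 3334 and 3719 TPM in HLF and 19026 and 13040 TPM in SNU475. The aldo-keto reductases made up 751 and 978 TPM of those sums in PLC/PRF/5, 1.84 and 1.05 TPM in HLF and 5810 and 2943 TPM in SNU475. In HLF the thioredoxin genes, at 1598 and 1813 TPM, were the most abundant group after ferritin. In PLC/PRF/5 the glutathione group stood at 982 and 1028 TPM, of which GPX2 made up 675 and 703 TPM.

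**Figure D2:**
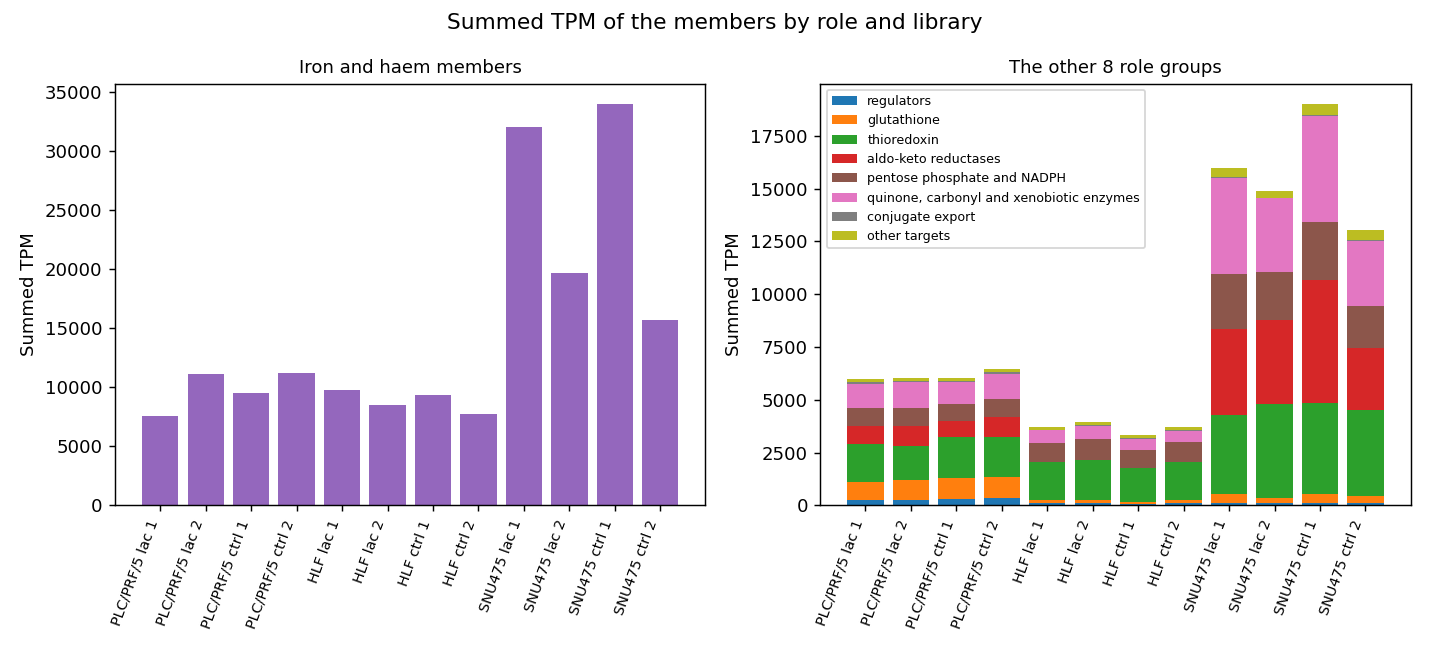
Summed TPM (y axis) of the iron and haem genes (left) and of the other 8 role groups (right, stacked) in each of the 12 libraries, lactate left of control within each line; the 2 panels have different y scales. SNU475 bars are the tallest in both panels, the aldo-keto reductase share is too thin to see in HLF, and the other 8 groups sum to 5978 and 6023 TPM with lactate against 6034 and 6435 TPM in the controls of PLC/PRF/5.

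None of these genes passed the test with lactate, and all 6 with the smallest p-values had lower means with lactate than in the controls. Averaged over the 3 lines, edgeR called 0 of the 36 at an adjusted p under 0.05, where 77 of 18355 genes were called (0.42%). At an unadjusted p under 0.05, 6 were lower and 0 higher, against 6.8% lower and 9.02% higher among all genes. The 6 were HMOX1, OSGIN1, KEAP1, SRXN1, ABHD4 and ABCC2. The mean effect was negative in 24 genes and positive in 12, with a median log2 fold of -0.07, against 0.03 for all genes. Some of these means include a line with few or no counts, as for GPX2 in HLF and SNU475 and AKR1C2 in HLF. Other fits called some of the 6. DESeq2 called 5 of them lower, all but ABCC2, where it called 947 genes in all, in either direction. limma-voom called 0, and 16 genes in all. edgeR with the replicate number as a block called all 6, where it called 1268 genes in all. The count also turned on single SNU475 libraries. It was 7 without SNU475 lactate library 1 (KEAP1, GCLC, SLC7A11, SRXN1, HMOX1, ABCC2 and OSGIN1), 3 without lactate library 2 (KEAP1, HMOX1 and OSGIN1), 1 without control library 1 (HMOX1) and 4 without both libraries numbered 2 (KEAP1, HMOX1, OSGIN1 and ABHD4). The genes called in all by the same 4 fits were 1493 without lactate library 1, 300 without lactate library 2, 149 without control library 1 and 530 without both libraries numbered 2.

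**Figure D3:**
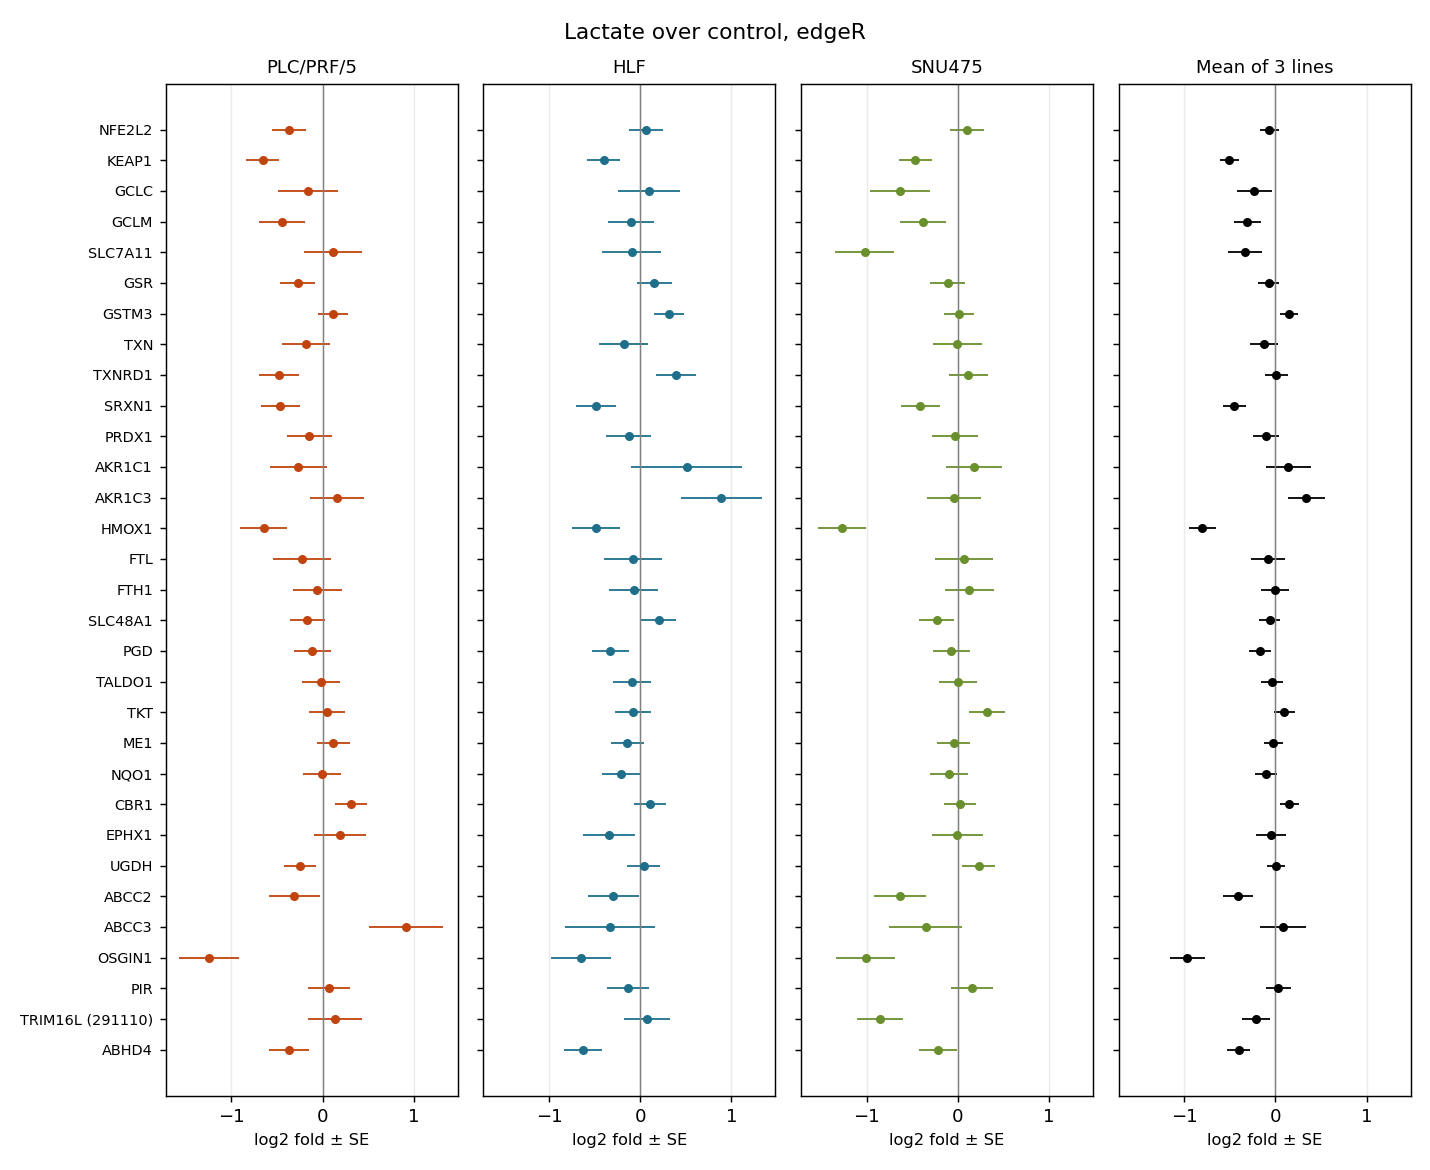
Lactate over control log2 fold changes (x axis) with standard errors from edgeR, in PLC/PRF/5, HLF and SNU475 and as the mean of the 3 lines, for the 31 genes with more than 3 counts in every group. HMOX1, OSGIN1, KEAP1, SRXN1, ABCC2 and ABHD4 lie left of 0 in every panel, while most glutathione, ferritin and pentose phosphate genes lie within an error bar or so of 0.

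Counted by library, 5 genes had both lactate libraries below both controls in all 3 lines, where 3.37% of all genes did. They were KEAP1, SRXN1, HMOX1, ABCC2 and OSGIN1. None lay above both controls in all 3 lines, against 2.72% of all genes. These counts used CPM. By deposited TPM, only OSGIN1 of the 5 still lay below both controls in all 3 lines. The HLF libraries of KEAP1, SRXN1, HMOX1 and ABCC2 overlapped on that scale. The fitted effect was negative in all 3 lines for 12 genes (17.7% of all genes) and positive in all 3 for GSTM3 and CBR1 (20.2% of all genes). The 12 include AKR1B10, whose HLF value rests on 0 counts with lactate and 1 in the controls. Within lines, 19 genes lay below and 5 above both controls in PLC/PRF/5, against 21.8% and 28.5% of all genes. In HLF the counts were 9 below and 5 above (19.9% and 19.6% of all genes), and in SNU475 9 below and 1 above (15.4% and 16.2%).

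HMOX1 (chromosome 22, 35380361 to 35394214) had 153 and 154 CPM in PLC/PRF/5 with lactate, against 278 and 203 CPM in the controls. In HLF it had 54.0 and 73.5 CPM with lactate, against 87.3 and 91.1 CPM, and in SNU475 86.1 and 53.4 CPM with lactate, against 143 and 195 CPM. In CPM, lactate and control libraries did not overlap in any line, and the gap was widest in SNU475. In deposited TPM the HLF libraries overlapped. The mean effect was -0.80 ± 0.15 on the log2 scale (SE, edgeR unadjusted p = 0.000228, adjusted p = 0.0505), just over the threshold. By line it was -0.65 ± 0.26 in PLC/PRF/5, -0.48 ± 0.26 in HLF and -1.27 ± 0.27 in SNU475, with an unadjusted interaction p of 0.124. The adjusted p was 0.00938 with the replicate block and 0.0219 without both SNU475 libraries numbered 2, and lay between 0.00395 and 0.217 with any 1 library left out.

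OSGIN1 (chromosome 16, 83948282 to 83966332) showed the largest mean effect of the 6. In PLC/PRF/5 it had 13.9 and 21.7 CPM with lactate, against 33.7 and 50.5 CPM. The HLF levels were 20.4 and 18.0 CPM with lactate, against 34.98 and 25.1 CPM, and in SNU475 108 and 56.7 CPM with lactate, against 170 and 161 CPM. No line overlapped. The mean effect was -0.97 ± 0.19 (edgeR adjusted p = 0.0513, 0.00254 with the replicate block), and by line -1.24 ± 0.33 in PLC/PRF/5, -0.65 ± 0.33 in HLF and -1.01 ± 0.32 in SNU475. The replicate block also called it in PLC/PRF/5 alone (-1.25, adjusted p = 0.0269).

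KEAP1 had 73.0 and 70.2 CPM in PLC/PRF/5 with lactate, against 115 and 110 CPM in the controls. In HLF it had 40.1 and 49.5 CPM with lactate, against 54.9 and 63.5 CPM, and in SNU475 43.0 and 35.9 CPM with lactate, against 56.5 and 52.5 CPM. The lines did not overlap on this scale, and the mean effect was -0.51 ± 0.11 (edgeR adjusted p = 0.0634, 0.0105 with the replicate block). In deposited TPM the HLF libraries did overlap, at 32.6 and 37.5 TPM with lactate and 34.6 and 43.9 TPM in the controls. The average length of the KEAP1 transcripts that RSEM assigned varied between 1664 and 2352 bases over the libraries, and in PLC/PRF/5 was 2252 and 2230 bases with lactate against 2348 and 2352 bases. With the effective length as an offset the mean effect was -0.46 (adjusted p = 0.142). NFE2L2 itself had a mean effect of -0.07 ± 0.11 (adjusted p = 0.858).

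SRXN1 had 73.3 and 67.1 CPM in PLC/PRF/5 with lactate, against 99.4 and 93.9 CPM. Its HLF levels were 75.5 and 92.3 CPM with lactate, against 104 and 131 CPM, and in SNU475 646 and 430 CPM with lactate, against 743 and 688 CPM. The 3 line effects lay between -0.48 and -0.41, but with 1 library left out they ranged from -0.525 to -0.400 in PLC/PRF/5, -0.638 to -0.312 in HLF and -0.733 to -0.151 in SNU475. The mean was -0.45 ± 0.13 (edgeR adjusted p = 0.119, 0.0146 with the replicate block). RSEM gave SRXN1 the same length of 2528 bases in every library. In deposited TPM its HLF and SNU475 libraries overlapped.

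ABHD4, a lipase of N-acyl phospholipids (chromosome 14, 22598237 to 22613215), had 13.1 and 16.2 CPM in PLC/PRF/5 with lactate, against 19.2 and 18.6 CPM. In HLF it had 38.1 and 33.4 CPM with lactate, against 61.9 and 48.5 CPM, and in SNU475 222 and 209 CPM with lactate, against 294 and 210 CPM. The SNU475 libraries overlapped and the others did not. Its mean effect was -0.41 ± 0.12 (edgeR adjusted p = 0.142, 0.0367 with the replicate block). ABCC2 had 214 and 194 CPM in PLC/PRF/5 with lactate, against 256 and 249 CPM. The HLF levels were 82.8 and 72.9 CPM with lactate, against 103 and 88.2 CPM, and in SNU475 83.8 and 39.4 CPM with lactate, against 104 and 87.3 CPM. The SNU475 gap was narrow for the library numbered 1 and wide for that numbered 2, and the mean effect was -0.41 ± 0.16 (adjusted p = 0.246, 0.0353 with the replicate block). The average ABCC2 length was 2513 to 4919 bases over the libraries, the widest range of the 6. In deposited TPM the ABCC2 libraries overlapped in PLC/PRF/5 and HLF.

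**Figure D4:**
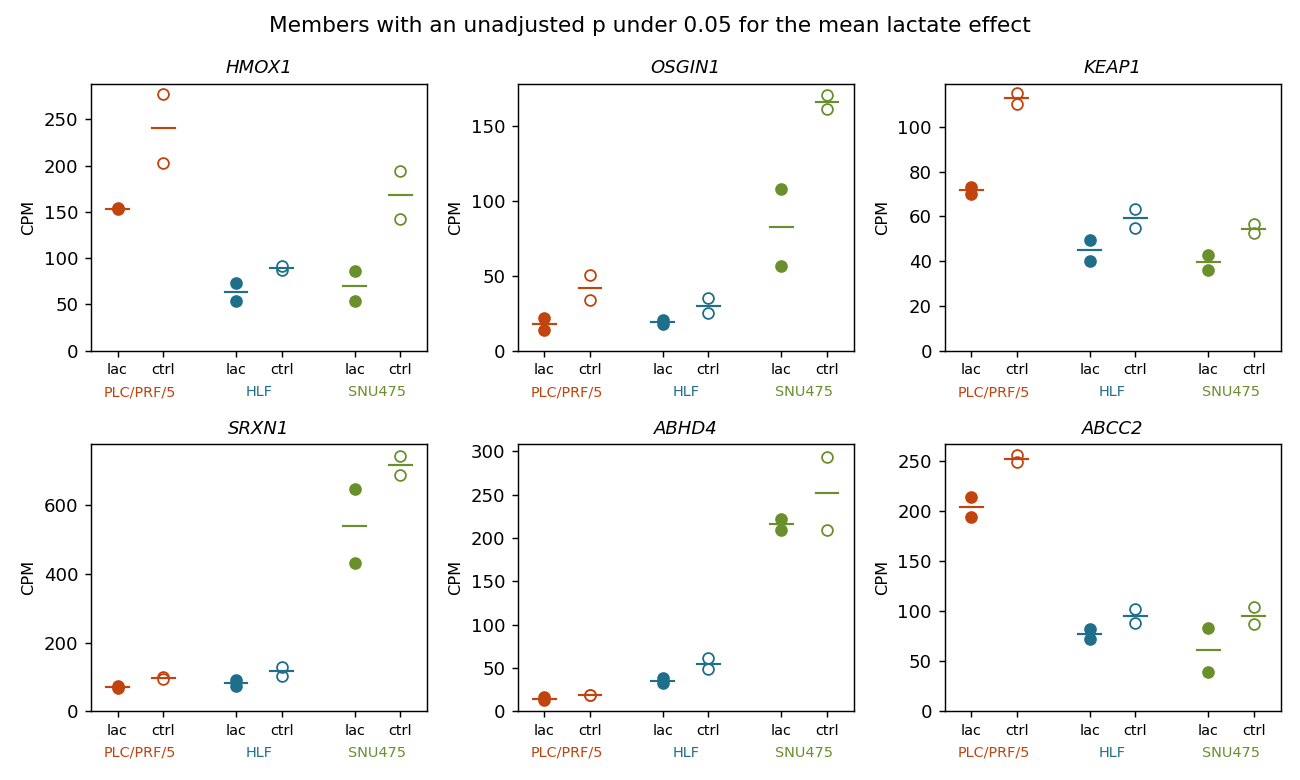
CPM on TMM-scaled library sizes (y axis, from 0) of the 6 genes with an unadjusted p under 0.05 for the mean lactate effect; filled points are lactate libraries, open points controls, bars the mean of 2, with lactate left of control in each line. Lactate points lie below both controls in all 3 lines except for ABHD4 in SNU475.

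The glutathione group held 5 negative and 1 positive mean effect, from -0.33 for SLC7A11 to 0.15 for GSTM3, and none reached an unadjusted p of 0.05. SLC7A11, named here after its values were seen, had 133 and 60.4 CPM in SNU475 with lactate, against 166 and 228 CPM in the controls. Its log2 fold there was -1.02 ± 0.32 (edgeR unadjusted p = 0.00811, adjusted p = 0.297), while its effects were 0.12 ± 0.32 in PLC/PRF/5 and -0.09 ± 0.32 in HLF. GPX2, detected only in PLC/PRF/5, had 229 and 286 CPM with lactate, against 306 and 310 CPM (-0.26 ± 0.20).

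In the thioredoxin group only SRXN1 was lower in all 3 lines by library CPM, while TXNRD1 (chromosome 12, 104215779 to 104350305) had effects of opposite sign. TXNRD1 had 395 and 300 CPM in PLC/PRF/5 with lactate, against 522 and 447 CPM, and 681 and 579 CPM in HLF with lactate, against 436 and 522 CPM. In SNU475 it had 2012 and 2317 CPM with lactate, against 1755 and 2237 CPM. The libraries did not overlap in PLC/PRF/5 or HLF, and did in SNU475. The effects were -0.48 ± 0.22, 0.39 ± 0.22 and 0.12 ± 0.22 in PLC/PRF/5, HLF and SNU475, and the interaction of lactate with line had an unadjusted p of 0.0425 and an adjusted p of 1 (edgeR). In all, 5 genes (NFE2L2, GSR, TXNRD1, ME1 and CBR3) lay above both controls in 1 line and below both in another, as did 9.69% of all genes. TXN and PRDX1 had mean effects of -0.12 ± 0.15 and -0.10 ± 0.14.

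Among aldo-keto reductases none was called with lactate. AKR1B10 had 38.9 and 59.5 CPM in PLC/PRF/5 with lactate, against 68.4 and 98.5 CPM (-0.76 ± 0.29, edgeR unadjusted p = 0.0230, adjusted p = 0.753), and overlapped in SNU475 at 1839 and 2071 CPM, against 2634 and 1866 CPM. The HLF libraries held 0 counts of AKR1B10 with lactate and 1 in the controls, so no fold is given. The 3 AKR1C rows summed had a mean effect of 0.27 ± 0.18 (adjusted p = 0.515). By line it was -0.013 ± 0.28 in PLC/PRF/5, 0.81 ± 0.38 in HLF and 0.021 ± 0.28 in SNU475. The HLF sums were only 2.27 and 1.76 CPM with lactate, against 1.34 and 0.948 CPM. In HLF, AKR1C3 stayed near the bottom of the range, at 1.41 and 1.44 CPM with lactate, against 0.994 and 0.527 CPM.

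Beside HMOX1, the other iron and haem genes had mean lactate effects near 0. They were -0.08 ± 0.18 for FTL, -0.0018 ± 0.15 for FTH1 and -0.06 ± 0.11 for SLC48A1. For SLC48A1 the lines differed in direction. It lay below both controls in PLC/PRF/5 (means of 71.3 against 80.1 CPM) and SNU475 (56.1 against 65.9 CPM). In HLF its mean was higher with lactate, at 35.1 against 30.5 CPM. The pentose phosphate and NADPH genes lay between -0.17 for PGD and 0.10 for TKT, and none reached an unadjusted p of 0.05 in any line. TKT was the only gene of the 36 above both controls in SNU475, with 1305 and 1230 CPM with lactate, against 1175 and 848 CPM. NQO1 had 554 and 570 CPM in PLC/PRF/5 with lactate, against 544 and 583 CPM, and a mean effect of -0.10 ± 0.12 (edgeR adjusted p = 0.762). ABCC3 was above both controls in PLC/PRF/5, with 18.6 and 19.0 CPM with lactate, against 9.25 and 10.7 CPM (0.92 ± 0.41, adjusted p = 0.835).

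By line, edgeR called 0 of the 36 with lactate in any of the 3, as it called 0% of all genes. The 3 comparisons used the same controls as those between lines. At an unadjusted p under 0.05, 5 were lower and 1 higher in PLC/PRF/5, 3 lower and 0 higher in HLF, and 7 lower and 1 higher in SNU475. The matching shares of all genes were 1.42% and 4.51%, 3% and 3.27%, and 5.19% and 6.4%. The 1 higher row in SNU475 was TRIM16L ENSG00000108448, which rests on a single library with 4.91 CPM against 0 in the other lactate library and both controls. TRIM16L ENSG00000291110 had 219 and 128 CPM in SNU475 with lactate, against 276 and 352 CPM (-0.85 ± 0.25, adjusted p = 0.282). In PLC/PRF/5 it had 3.41 and 3.19 CPM with lactate, against 2.54 and 3.43 CPM, and in HLF 38.5 and 45.8 CPM with lactate, against 42.1 and 37.8 CPM. At an unadjusted p under 0.05 the interaction held TXNRD1 and both TRIM16L rows, against 3.51% of all genes, and edgeR called 0. It had unadjusted p-values of 0.0265 and 0.0345 for the 2 TRIM16L rows, 0.0398 for their sum, and adjusted p-values of 1. DESeq2 called 1 of the 36 in PLC/PRF/5 (KEAP1) and 1 in SNU475 (HMOX1), and limma-voom called 0 in any line. Without SNU475 lactate library 1, edgeR called 6 lower in SNU475 (GCLC, SLC7A11, HMOX1, ABCC2, OSGIN1 and TRIM16L ENSG00000291110), and a fit of PLC/PRF/5 alone called 4 there, with KEAP1, SRXN1 and HMOX1 lower and ABCC3 higher. Over all genes the fit without lactate library 1 called 1788 in SNU475 and the fit of PLC/PRF/5 alone called 569, while DESeq2 called 91 in PLC/PRF/5 and 274 in SNU475.

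A further 81 genes of the same pathways, listed by role, were matched, and 79 were tested. With lactate 1 was called higher (0.305% of all genes) and 0 lower (0.114%), and at an unadjusted p under 0.05 there were 6 higher and 4 lower, against 9.02% and 6.8% of all genes. The called gene was TXNIP, which binds and inhibits thioredoxin. In PLC/PRF/5 it had 0.852 and 1.62 CPM with lactate, against 0.451 and 0.299 CPM, in HLF 69.2 and 38.4 CPM, against 18.2 and 15.3 CPM, and in SNU475 333 and 833 CPM, against 106 and 90.1 CPM. Every lactate library exceeded its controls, and the mean effect was 1.98 ± 0.29 (edgeR adjusted p = 0.0269). Its call was lost in limma-voom (adjusted p = 0.0993) and when any control or lactate library of PLC/PRF/5, either HLF control, HLF lactate library 1 or SNU475 control library 2 was left out, with log2 folds of 1.71 to 2.15 and adjusted p of 0.00137 to 0.140 over the 12 fits.

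SLC3A2, the partner chain of the cystine importer SLC7A11, had 306 and 308 CPM in PLC/PRF/5 with lactate, against 549 and 429 CPM. In HLF it had 203 and 187 CPM with lactate, against 375 and 259 CPM, and in SNU475 262 and 301 CPM with lactate, against 387 and 369 CPM. It lay below both controls in each line and just missed the threshold (-0.60 ± 0.12, adjusted p = 0.0554). Of the 8 alternative fits other than leaving out 1 library, 4 called it lower. AIFM2, a ubiquinone reductase that restrains ferroptosis, also lay below both controls in each line (-0.50 ± 0.12, edgeR adjusted p = 0.0927), and SQSTM1, a KEAP1-binding autophagy receptor, did so in PLC/PRF/5 and HLF (-0.64 ± 0.19, adjusted p = 0.134). Of those 8 alternative fits, 3 called AIFM2 lower and 4 called SQSTM1 lower.

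BACH1, the repressor that competes with NRF2 at HMOX1, had a mean effect of 0.42 ± 0.14 (adjusted p = 0.189), with 55.2 and 53.7 CPM in PLC/PRF/5 with lactate, against 60.8 and 56.2 CPM. Its HLF levels were 49.8 and 42.9 CPM with lactate, against 23.4 and 34.0 CPM, and in SNU475 61.0 and 99.1 CPM, against 52.9 and 48.4 CPM. IDH2, the mitochondrial NADP-dependent isocitrate dehydrogenase, was above both controls in PLC/PRF/5 and HLF (0.44 ± 0.11, adjusted p = 0.102), and AKR1B1, BLVRA, MTHFD2 and SLC40A1 were the others with an unadjusted p under 0.05. Of these, AKR1B1 was lower (-0.42 ± 0.18), and BLVRA (0.25 ± 0.10), MTHFD2 (0.27 ± 0.12) and SLC40A1 (0.80 ± 0.29) were higher in the mean. AKR1B1 averaged 0.435 CPM in HLF with lactate, against 1.05 CPM. Its means were 95.9 against 100 CPM in PLC/PRF/5 and 295 against 280 CPM in SNU475. SLC40A1 averaged 0.549 against 0.154 CPM in HLF, 26.0 against 21.1 CPM in PLC/PRF/5 and 41.8 against 34.2 CPM in SNU475. Of the 8 alternative fits other than leaving out 1 library, 2 called IDH2 higher and 1 called SLC40A1 higher. The remaining genes taken by the naming rule, MAFG, DPP3, MGST1, GSS, GSTP1, PRDX2, TXN2, TXNRD3, CAT, SOD1, SOD2, SOD3, NCOA4, TFRC, TIGAR, ME2, ABCC1 and ABCC4, had adjusted p-values of 0.32 or more.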

How the data were processed

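The authors deposited 1 RSEM gene table per library, per the file headers; STAR, RSEM, DESeq2 and FastQC are listed, with no version or role, per the submitters' processing notes. Those notes name the mouse build GRCm38 (mm10), while the deposited identifiers are human Ensembl genes; no human build is given in the sources used here. The expected counts that the authors deposited were rounded, 47 Y-copy rows were added to their X copies, and 62710 genes remained. Genes were filtered with edgeR's filterByExpr (18355 kept), scaled by TMM (factors 0.794 to 1.17) and fitted as 6 groups with edgeR 4.0.16 quasi-likelihood (R 4.3.3) with Benjamini-Hochberg adjustment over all tested genes; a call is an adjusted p under 0.05. Differences have 6 residual degrees of freedom and a biological coefficient of variation of 0.26. Deposited TPM values, scaled per length and library by the authors, were used for levels between genes and, beside CPM, to see which lactate and control libraries overlapped.

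The 35 symbols and the further pathway genes were chosen with earlier results of these data known. Values per library are given for members with an unadjusted p under 0.05 in the mean lactate effect or the interaction and, between untreated lines, for the 2 of each role with the largest called fold; members named beyond that were chosen after their values were seen. Up to 4 further pathway genes per list were taken by smallest p. The fit was tested on simulated data. Deviations of same-numbered lactate and control libraries correlated at 0.132 in PLC/PRF/5, 0.101 in HLF and 0.446 in SNU475 over 18355 genes, each over a limit of 0.1. With 2 libraries a group, swapping the numbers would only flip the sign, so these values cannot show whether libraries were paired. Both PLC/PRF/5 libraries titled 2, lactate and control, carry the number 3 in their deposited names. The main fit is unpaired. An alternative with the title number as a block is given where it changes a lactate call of the 36 genes. Alternatives were median-of-ratios size factors, DESeq2 1.42.0, limma-voom (limma 3.58.1), no filter, the block and effective-length offsets. Others were each of 12 libraries left out, both SNU475 libraries numbered 2 left out, and each line alone. A further alternative, chosen after seeing the data, summed similar rows, those of the AKR1C genes and those of TRIM16L. Intervals and floors (3 counts over a group) cover counting error only.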

Additional observations from a re-analysis of the deposited data

Results flagged for a closer look

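In 5 of the 36 genes the lactate libraries lay wholly above the controls in 1 line and wholly below them in another, which 9.69% of all genes did. The difference between lines was not called for any of the 5 (edgeR interaction, adjusted p of 1). NFE2L2 had log2 folds of -0.37 in PLC/PRF/5 and 0.061 in HLF. GSR had -0.27 in PLC/PRF/5 and 0.16 in HLF. TXNRD1 had -0.48 in PLC/PRF/5 and 0.39 in HLF, the widest of these gaps among genes with more than 5 counts in each group. ME1 had 0.12 in PLC/PRF/5 and -0.14 in HLF. CBR3 had 1.81 in PLC/PRF/5, where it rests on 5 counts with lactate against 1 in the controls, with -0.40 in HLF and -0.70 in SNU475.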

How the results depend on the processing

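The total numbers called between untreated lines kept within 1.5 times under every alternative run. The single higher call in HLF over SNU475 became 0 with DESeq2, without any 1 HLF or SNU475 control and without both SNU475 libraries numbered 2. With similar rows summed its row was merged into the other TRIM16L row and could not be called. With lactate, the number of the 36 called for the mean effect (0 as reported) was 1 with median-of-ratios size factors, 5 with DESeq2, 4 with no filter, 6 with the replicate block and 4 without both SNU475 libraries numbered 2; over all genes (77 as reported) DESeq2 called 947, limma-voom 16, no filter 922, the block 1268, effective-length offsets 17 and the fit without both SNU475 libraries 530. In PLC/PRF/5, members called were 1 with DESeq2, 2 with no filter, 1 with the block, 1 without both SNU475 libraries and 4 in that line alone, and all genes 91, 188, 121, 138 and 569, with 1 under effective-length offsets. In HLF, all genes called were 42 with DESeq2, 111 with no filter, 3 with the block, 39 without both SNU475 libraries and 1 in that line alone. In SNU475, members called were 1 with DESeq2 and 5 with no filter, and all genes 274, 414 and, with the block, 46. For the interaction, 1 member was called with no filter, and all genes called were 9 with DESeq2, 1 with limma-voom, 136 with no filter and 6 with the block. Leaving out 1 library gave 0 to 7 members and 0 to 1493 genes for the mean, 0 to 0 and 0 to 19 in PLC/PRF/5, 0 to 0 and 0 to 0 in HLF, 0 to 6 and 0 to 1788 in SNU475, and 0 to 1 and 0 to 203 for the interaction. Between untreated lines it gave 21 to 25 members and 5288 to 9148 genes for PLC/PRF/5 against HLF, 28 to 32 and 6036 to 10337 for PLC/PRF/5 against SNU475, and 27 to 32 and 5114 to 8632 for HLF against SNU475. Signs of single lactate effects were followed only for genes with an unadjusted p under 0.05 in the mean effect or the interaction. For the further pathway genes taken by the naming rule, only the mean effect was followed. Among these, the lactate effects of TRIM16L ENSG00000291110 changed sign. They were -0.40 in PLC/PRF/5 and -0.11 in HLF with effective-length offsets, and -0.034 in PLC/PRF/5 with its rows summed. With 1 library left out they ranged from -0.056 to 0.378 in PLC/PRF/5 and from -0.057 to 0.207 in HLF. TRIM16L ENSG00000108448 ranged from -1.87 to 2.97 for the mean, -6.94 to 0 in PLC/PRF/5, -0.895 to 0.978 in HLF and 0 to 9.60 in SNU475. ABHD4 in SNU475 ranged from -0.451 to 0.039, and TXNRD1 from -0.062 to 0.074 for the mean and -0.052 to 0.297 in SNU475. Among the further pathway genes, the mean effect of SOD2 was -0.042 without both SNU475 libraries numbered 2, and with 1 library left out SOD2 ranged from -0.019 to 0.117 and SOD1 from -0.215 to 0.066. The cause was not tested. With 2 libraries a group, where 1 is left out the lone library is assumed to vary like the other groups.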
